A study of Mus musculus with 6 samples.

Results

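The Schlafen genes measured here were Slfn1, Slfn2, Slfn3, Slfn4, Slfn5, Slfn8 and Slfn9. These 7 members were taken by gene symbol from a table of 54532 genes, and all 7 were detected above the filter used for testing, which kept 13441 genes. Bone marrow-derived macrophages (BMDMs) of C57BL/6 mice, young adults, shared a culture with ID8, a tumour line derived from the mouse ovary. For 3 libraries these tumour cells had first been exposed to cisplatin at 40 µM, a DNA-crosslinking platinum compound, and for the 3 control libraries to phosphate-buffered saline (PBS). The labels give the drug as the variable between groups, and the study's methods name serum but no macrophage growth factor in their medium. The comparison asks how contact with drug-exposed tumour cells alters the transcripts of the macrophage culture.

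Schlafen genes form a family that many cells switch on in response to interferon and whose members restrain growth or virus replication. They share an N-terminal Schlafen core, which in several of them binds or cleaves transfer RNA. They fall into short, intermediate and long forms, of which only the long ones carry a C-terminal helicase-like region. In myeloid cells and T cells the family is known mainly for keeping cells quiescent or setting how they mature.

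Exposure of the tumour cells to cisplatin was followed by unequal changes across the family. On the FPKM scale explained with the values, Slfn9 was 3.72-fold lower in the cisplatin group and was the only member that met both criteria of a call, an adjusted p under 0.05 and a fold change of at least 2. Slfn8, Slfn4, Slfn5 and Slfn1 fell by smaller amounts, while Slfn2 and, less certainly, Slfn3 rose. Per gene length, Slfn2 took the place of Slfn4 as the most abundant member. The directions of Slfn2 and Slfn3 turned when the libraries were scaled on Y-linked transcripts, as described with their values.

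All 7 members lie on chromosome 11 within 263.8 kb, from position 82951349 to 83215154 of the mouse assembly GRCm38 (mm10). In order along the chromosome they are Slfn5, Slfn9, Slfn8, Slfn2, Slfn1, Slfn4 and Slfn3, with Slfn8 and Slfn9 on the minus strand and the others on the plus strand. Coordinates of every Schlafen gene in the table matched GENCODE release M21. The longest annotated coding sequences were 1011 bases for Slfn1 and 1134 bases for Slfn2, the short forms. Slfn4 had 1806 bases and Slfn3 had 1920 bases, the intermediate forms. The long forms had 2652 bases in Slfn5 and 2730 bases in both Slfn8 and Slfn9.

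Members of the same form were the most alike in sequence. Over a global alignment of coding sequences, with gaps counted as differences, Slfn8 and Slfn9 were 92.7% identical, Slfn3 and Slfn4 85.3%, Slfn1 and Slfn2 63.0%, and Slfn5 was 58.2% identical to Slfn8. Reads could be shared between close copies, and the length of the reads is not given in the sources used here. Of all stretches of 50 bases in its transcripts, Slfn3 shared 15.6% with transcripts of other genes, Slfn8 14.6%, Slfn9 11.5% and Slfn4 10.8%. Slfn2 shared 4.27%, Slfn5 3.37% and Slfn1 0.606%. At 100 bases no member shared more than 3.71%, the value of Slfn9. How much this affects each gene therefore depends on the read length.

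Interferons act on genes through the interferon-stimulated response element (ISRE), whose core is a repeat of GAAA with a gap of 2 bases, and through the gamma-activated site (GAS), whose core is TTC and GAA with 3 bases between. Promoter windows of RefSeq (GRCm38.p6), 250 bases before to 50 bases after the start, were found for all 7 members and searched on both strands for GAAANNGAAA and for TTCNNNGAA. The ISRE core occurred in 3 of 7 members, the long forms Slfn5, Slfn8 and Slfn9, against 3.99% of 27025 genes with a window. The GAS core occurred in 0 of 7 members, against 9.55% of genes. The bases before the start are shown for the closest pair, Slfn9 and Slfn8, which hold the ISRE core, and for the most abundant pair, Slfn4 and Slfn2, in which these letters are not in the window. Each is written 5′ to 3′ on the strand of its gene, with the core in capitals where it occurs, here in its reverse complement TTTCNNTTTC.
Slfn9 (chr11:82991831-82992080, minus strand): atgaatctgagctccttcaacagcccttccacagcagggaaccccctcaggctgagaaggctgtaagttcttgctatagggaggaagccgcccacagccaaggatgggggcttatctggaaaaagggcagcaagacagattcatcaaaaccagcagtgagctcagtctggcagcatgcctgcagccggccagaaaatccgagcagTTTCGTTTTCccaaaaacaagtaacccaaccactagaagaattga
Slfn8 (chr11:83020811-83021060, minus strand): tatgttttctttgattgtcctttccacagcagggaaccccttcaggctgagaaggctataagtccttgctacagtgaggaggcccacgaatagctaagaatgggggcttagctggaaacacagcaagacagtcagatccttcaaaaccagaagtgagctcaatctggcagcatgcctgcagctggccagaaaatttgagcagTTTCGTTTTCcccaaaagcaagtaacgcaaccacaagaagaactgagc
Slfn4 (chr11:83174936-83175185, plus strand): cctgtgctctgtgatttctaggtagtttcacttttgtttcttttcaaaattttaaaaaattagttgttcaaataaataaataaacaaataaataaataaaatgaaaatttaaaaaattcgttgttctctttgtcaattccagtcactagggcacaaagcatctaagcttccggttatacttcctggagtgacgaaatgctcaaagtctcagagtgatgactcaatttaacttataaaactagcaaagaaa
Slfn2 (chr11:83064862-83065111, plus strand): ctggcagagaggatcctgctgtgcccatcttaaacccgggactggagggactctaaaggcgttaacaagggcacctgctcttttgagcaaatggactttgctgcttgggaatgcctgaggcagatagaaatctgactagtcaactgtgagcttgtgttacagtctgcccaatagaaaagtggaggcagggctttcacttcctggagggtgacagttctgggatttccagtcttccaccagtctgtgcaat
The core of Slfn9 spanned bases -45 to -36 from its start and that of Slfn8 bases -48 to -39, with the same 10 letters TTTCGTTTTC. A later start of Slfn8 in the same reference places these bases at -136 to -127. In Slfn5 the letters were GAAAAAGAAA, at -155 to -146 on the strand of the gene. The 250 bases before the start were 79.8% identical between Slfn8 and Slfn9, and between 39.1% and 49.1% in every other pair of members. A match of letters describes the window and is not a measured binding site.

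Expression was read from FPKM, the number of fragments divided by gene length and by library depth, which allows levels to be compared between genes. Multiplied by gene length, the FPKM of every library fell on whole multiples of a fixed step, from which 15776238 to 17924686 reads per library were recovered. The members rested on 130 to 18014 reads per library, with Slfn3 the lowest at 130 to 264. Tests used limma on log2(FPKM + 1), where each log2 fold change is cisplatin minus PBS and SE is its standard error, with Benjamini-Hochberg adjustment over all 13441 genes tested. On this scale the change of a low gene is understated. The labels do not say whether replicates came from separate cultures or animals, so p-values measure the spread between these libraries.

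Among the libraries as a whole, correlations of log2(FPKM + 1) were 0.984 to 0.989 within a group and 0.871 to 0.877 between groups. All 14 macrophage markers were tested and had an adjusted p under 0.05 with higher values in the cisplatin group, with a summed FPKM of 4349 to 4518 against 1706 to 1716. Of the marker list for ID8 cells (mesothelial and epithelial genes), 11 of 15 were tested and 10 passed in the lower direction and 1, Cdh1, in the higher direction (0.60 on the log2 scale), with a summed FPKM of 255.7 to 275.5 against 1339 to 1438. Neutrophil markers (9 of 10 passed, higher) summed to 9036 to 9257 against 4914 to 5062, and B cell markers (6 of 6 passed, higher) to 1137 to 1167 against 578.5 to 602.9. T and NK cell markers summed to 26.47 to 28.42 against 20.09 to 22.93, with 5 of 7 tested passing as higher and 1 as lower, and erythroid and megakaryocyte markers to 132.1 to 135.2 against 77.41 to 81.3, with 2 of 6 passing as higher. Beside these counts, 32.9% of all tested genes passed as higher and 35.1% as lower. Of the macrophage markers 2, Mertk and Mrc1, passed the filter through the cisplatin libraries alone, which fixed their direction. Mrc1 had a mean of only 0.743 FPKM in the PBS group and 11.3 FPKM in the cisplatin group. No marker of the first 5 lists was at 0 in every library, whereas the platelet gene Gp1bb was. The part of these marker differences in the changes of the Schlafen genes was not tested, and in such bulk libraries fewer cells of a type and less RNA per cell cannot be told apart.

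Transcripts of 4 Y-linked genes (Ddx3y, Eif2s3y, Kdm5d, Uty) also moved with the groups. Their summed FPKM was 41.58 to 42.8 in the cisplatin group and 19.49 to 22.69 in the PBS group. ID8 comes from the ovary and has no Y chromosome, and whether both groups had the same share of male marrow donors is not given in the sources used here. Scaling every library to equal Y-linked signal moved the median log2 fold change of all tested genes from -0.0011 to -0.832, and it brought the median of the macrophage list to 0.19, of the neutrophil list from 1.06 to 0.08 and of the B cell list from 1.09 to 0.11, while that of the T and NK cell list turned from 0.37 to -0.41 and that of the erythroid and megakaryocyte list from 0.33 to -0.46. The list for ID8 cells had medians of -2.06 and -3.04. Each Schlafen gene is therefore also given on this second scale where its direction or its call differs.

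Slfn9 showed the largest change of the family. It is a long form with a helicase-like region, and little is established about its function. Its FPKM was 23.9, 27.1 and 24.5 in the PBS libraries and 6.97, 5.96 and 7.38 in the cisplatin libraries. The groups were far apart, with every cisplatin library under every PBS library. The mean fell from 25.2 ± 1.72 to 6.77 ± 0.729 FPKM (SD, n = 3 each), a log2 fold change of -1.76 (SE 0.083; limma, adjusted p = 2.77e-06). Of all tested genes 11.3% were called lower, and the log2 fold change of Slfn9 stood at percentile 4.05 of all tested genes. It was called lower under all 17 alternative settings and scalings, with log2 fold changes between -2.66 and -1.67.

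Slfn8, the closest relative of Slfn9, fell less. It is a long form found in immune cells. The PBS libraries held 26.8, 28.2 and 25.6 FPKM and the cisplatin libraries 18.3, 17.6 and 18.4 FPKM. There was no overlap, and the mean went from 26.9 ± 1.29 to 18.1 ± 0.478 FPKM (SD, n = 3 each). The log2 fold change was -0.55 (SE 0.047; limma, adjusted p = 5.15e-05). In the PBS group the levels of Slfn8 and Slfn9 overlapped, whereas in the cisplatin group the lowest Slfn8 value of 17.55 FPKM lay above the highest Slfn9 value of 7.38 FPKM. The within-library log2 ratio of Slfn8 to Slfn9 rose from 0.092 ± 0.059 to 1.30 ± 0.102 (SD, n = 3 each), a difference of 1.21 (exact permutation test, two-sided, p = 0.1, the smallest that 3 against 3 libraries allow).

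Slfn5 changed least of the long forms. It is a nuclear member with a helicase-like region, known as an interferon-induced regulator of transcription. Its FPKM was 22.9, 22.8 and 22.2 with PBS and 17.7, 19.0 and 18.5 with cisplatin. Here too no library of one group reached the other, the lowest PBS value being 22.2 FPKM and the highest cisplatin value 19.0 FPKM. The log2 fold change was -0.29 (SE 0.041; limma, adjusted p = 6.70e-04). Slfn5 overlaps the antisense gene Slfn5os, which had at most 3 reads in any library, and whose reads could not be told from those of Slfn5 if strand was not used in counting.

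**Figure D1:**
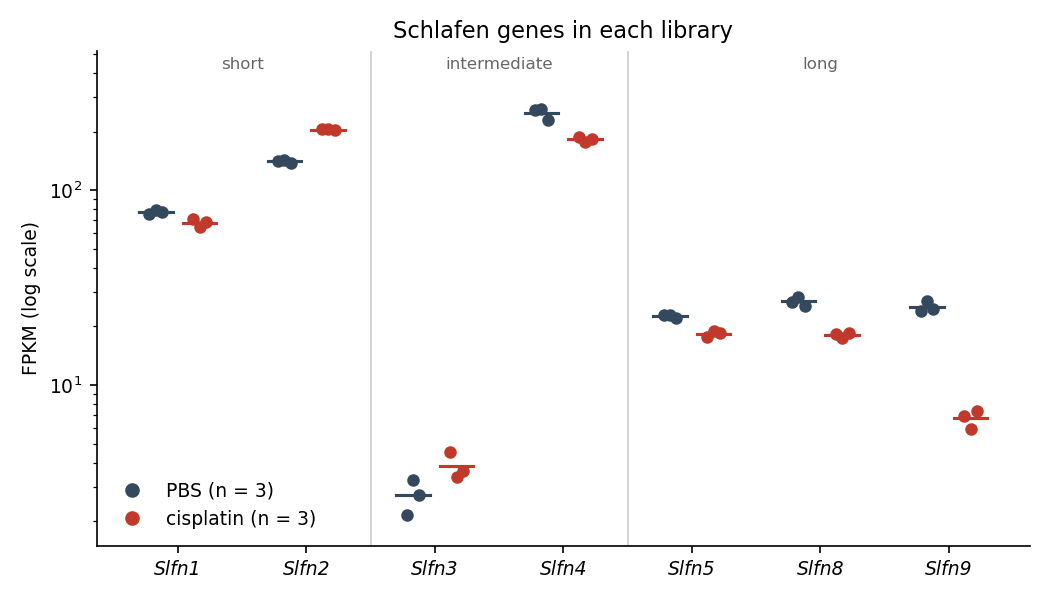
FPKM on a log axis of the 7 Schlafen genes in each of the 6 libraries, grouped as short, intermediate and long forms. Points are libraries and horizontal bars are group means. Slfn9 shows the widest gap between groups, from means of 25.2 (PBS) to 6.77 (cisplatin), and Slfn2 and Slfn3 are the genes whose cisplatin values lie above the PBS values.

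Slfn4, an intermediate form of monocytes, macrophages and neutrophils, was the most abundant member in the PBS group. It is switched on by interferon and in the inflamed stomach marks suppressive myeloid cells that depend on Gli1, a transcription factor of the Hedgehog pathway. The PBS libraries held 257, 262 and 229 FPKM, and the cisplatin libraries 188, 176 and 183 FPKM. All cisplatin libraries were lower than the lowest PBS library, replicate 3. The mean fell from 249 ± 17.4 to 182 ± 5.89 FPKM (SD, n = 3 each), with a log2 fold change of -0.45 (SE 0.057; limma, adjusted p = 3.78e-04).

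Slfn3, the other intermediate form, had the lowest level of the family and the least certain change. It has been studied mainly in T cells and in the differentiation of gut epithelium. Its FPKM was 2.15, 3.28 and 2.74 with PBS and 4.55, 3.39 and 3.60 with cisplatin. The groups did not overlap, but the highest PBS value and the lowest cisplatin value were close. In reads these were 174 in PBS replicate 2, with a 95% exact Poisson interval of 149 to 202, and 190 in cisplatin replicate 2, with an interval of 164 to 219. Such intervals cover counting error only. The log2 fold change was 0.38 (SE 0.138; limma, adjusted p = 0.0421). The adjusted p rose above 0.05 without cisplatin replicate 1 (0.122), cisplatin replicate 3 (0.0690), PBS replicate 1 (0.113) or PBS replicate 3 (0.0835). With the replicate number added to the limma model it was 0.0934, and without the filter 0.107. It was lower with limma voom on recovered reads, at 0.0018 with a log2 fold change of 0.61, and with quantile normalisation, at 0.0104 with 0.53. Scaling on the Y-linked genes turned the direction, to -0.38 (adjusted p = 0.0303).

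Slfn2 rose with little spread. This short form protects transfer RNA from cleavage and keeps resting T cells and monocytes quiescent, and mice with a mutant Slfn2 lose these cells when they are activated. The PBS libraries held 141, 143 and 139 FPKM and the cisplatin libraries 206, 206 and 203 FPKM. The groups were separated by far more than the range within either. The mean went from 141 ± 2.12 to 205 ± 1.78 FPKM (SD, n = 3 each), 1.46-fold higher, with a log2 fold change of 0.54 (SE 0.029; limma, adjusted p = 5.19e-06). On the Y-linked scale the direction turned, with a log2 fold change of -0.45 (adjusted p = 1.10e-04). Slfn2 overlaps the antisense gene Gm20234 on the opposite strand, which had 23 to 51 reads per library against 3574 to 5829 for Slfn2, with the same limit.

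Slfn1, the other short form and the founding member of the family, changed least on the FPKM scale. It was first described as a brake on thymocyte growth. Its FPKM was 75.5, 79.2 and 77.0 with PBS and 70.8, 64.5 and 68.5 with cisplatin. Every cisplatin library was lower, by a margin comparable to the range within a group. The log2 fold change was -0.18 (SE 0.044; limma, adjusted p = 0.00842), and it was -0.10 with an adjusted p of 0.0853 when limma voom was run on the recovered reads.

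Counted together, 5 of 7 members had an adjusted p under 0.05 and were lower, against 35.1% of tested genes, and 2 of 7 were higher, against 32.9%. Of these, Slfn1 had an adjusted p of 0.0853 with limma voom on recovered reads. The adjusted p of Slfn3 was above 0.05 in several settings, given with its values. By both criteria 1 of 7 was lower and 0 of 7 higher, where 11.3% of tested genes were called lower and 4.67% higher; limma on the FPKM gave 2 members higher at an unadjusted p under 0.05, and limma voom called 0 higher. In all 7 members the groups did not overlap, as in 72.4% of tested genes. The median log2 fold change of the members was -0.29, beside -0.0011 over all tested genes. On the Y-linked scale all 7 were lower and 5 were called lower, where 38.5% of tested genes were, the exceptions being Slfn2 and Slfn3, with log2 fold changes of -1.17 for Slfn1, -1.44 for Slfn4, -1.24 for Slfn5, -1.50 for Slfn8 and -2.66 for Slfn9.

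**Figure D2:**
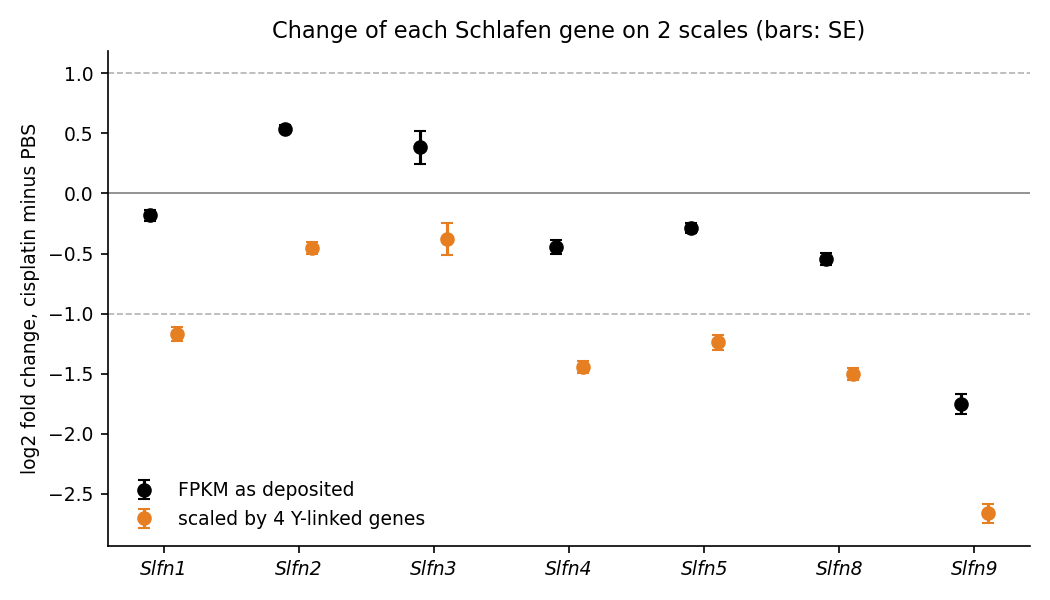
Log2 fold change, cisplatin minus PBS, of each Schlafen gene with its SE, from FPKM as deposited (black) and after scaling the libraries by 4 Y-linked genes (orange). Dashed lines mark a fold change of 2. Slfn2 and Slfn3 lie above 0 on the first scale and below 0 on the second, and Slfn9 is at -1.76 and -2.66.

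The family total was lower by less than most of its members on the FPKM scale. Summed over the 7 members, FPKM was 549.3, 564.9 and 519.9 with PBS and 512.3, 492.7 and 502.2 with cisplatin. All cisplatin totals were lower, with means of 545 ± 22.8 and 502 ± 9.80 FPKM (SD, n = 3 each) and a ratio of 0.922 (exact permutation test, two-sided, p = 0.1). This log2 ratio of -0.12 became -0.22 with recovered reads relative to the library total and -1.11 with the Y-linked scaling. The makeup of this total also differed between the groups. The share of a member within a library does not depend on a factor applied to the whole library.

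Slfn2 made up 25.7%, 25.3% and 26.6% of the total with PBS and 40.2%, 41.8% and 40.4% with cisplatin. Its share was higher by 14.95 percentage points. Slfn4 went from 45.7% ± 1.40 to 36.3% ± 0.473, and Slfn9 from 4.62% ± 0.237 to 1.35% ± 0.130 (SD, n = 3 each). Shares of Slfn8 and Slfn5 were also lower in every cisplatin library, and that of Slfn3 was higher. Shares depend on whether length is divided out: with recovered reads in place of FPKM the share of Slfn5 turned, from -0.498 to 0.054 percentage points, and that of Slfn1 from -0.666 to 0.727 (-0.356 on FPKM without PBS replicate 3), while the differences became -5.13 for Slfn4 (from -9.44) and -5.63 for Slfn9 (from -3.28). The share of Slfn1 overlapped between groups, at 14.2% ± 0.553 and 13.5% ± 0.389. For each of the 6 shares that did not overlap, the exact permutation test gave p = 0.1, the smallest this design allows, or 0.117 adjusted over the 7 members.

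**Figure D3:**
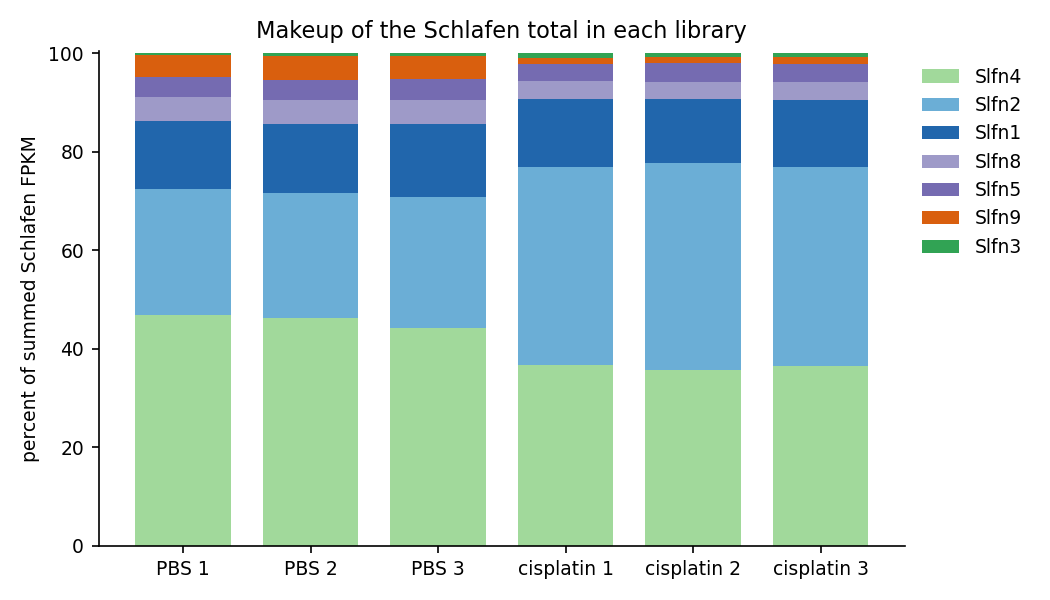
Percent of the summed Schlafen FPKM taken by each member in each library, as stacked bars that add up to 100. Slfn4 is the largest part in the 3 PBS libraries, at a mean of 45.7%, and Slfn2 in the 3 cisplatin libraries, at a mean of 40.8%.

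The order of levels differed accordingly. In PBS cultures it ran from Slfn4 through Slfn2, Slfn1, Slfn8, Slfn9 and Slfn5 to Slfn3, and only the neighbours Slfn8 and Slfn9 overlapped. With cisplatin it ran from Slfn2 through Slfn4, Slfn1, Slfn5, Slfn8 and Slfn9 to Slfn3, and only Slfn5 and Slfn8 overlapped. In PBS cultures the lowest Slfn4 value was 229 FPKM and the highest Slfn2 value 143 FPKM. With cisplatin the lowest Slfn2 value was 203 FPKM and the highest Slfn4 value 188 FPKM, so the exchange of ranks lay outside the spread of the libraries. It holds per gene length: Slfn4, the longer gene, still gave more reads with cisplatin, at 11472 to 12675 per library against 5578 to 5829 for Slfn2.

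On the FPKM scale the members of the short form differed in direction, as did those of the intermediate form, while all long forms were lower. Within-library log2 ratios were compared for all 21 pairs, and the groups did not overlap in 18 of 21, against 72.1% of all pairs of tested genes. The ratio of Slfn2 to Slfn4 moved by 0.99, from -0.82 ± 0.081 to 0.17 ± 0.050 (SD, n = 3 each). In the short pair, Slfn1 fell relative to Slfn2 by 0.72 on the log2 scale, and in the intermediate pair Slfn3 rose relative to Slfn4 by 0.83. Of the long forms, Slfn5 rose relative to Slfn8 by 0.26, and Slfn5 and Slfn8 rose relative to Slfn9 by 1.47 and 1.21. The pairs that overlapped were Slfn1 with Slfn5 (difference 0.10), Slfn2 with Slfn3 (0.16) and Slfn4 with Slfn5 (-0.16). Each of these 18 pairs had p = 0.1 in the exact permutation test, the smallest that 3 against 3 libraries allow, or 0.117 adjusted over the 21 pairs.

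Other genes with a Schlafen symbol added little signal. Slfn10-ps, a transcribed pseudogene between Slfn8 and Slfn2, had 3.99, 5.20 and 4.38 FPKM with PBS and 4.40, 3.67 and 4.50 with cisplatin. Its groups overlapped, with a log2 fold change of -0.09 (SE 0.104; limma, adjusted p = 0.478). It is the gene with which Slfn8 and Slfn9 share most transcript sequence, 10.1% and 8.10% of their stretches of 50 bases. Slfn14, a long form known for its endonuclease and for inherited platelet disorders, was under the filter. It had 34 reads over the cisplatin libraries (95% exact Poisson interval 23.5 to 47.5) and 11 over the PBS libraries (5.49 to 19.7). Slfn5os had 3 and 4 reads, and Slfnl1, a related gene on chromosome 4, 2 and 7.

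Genes around the cluster were called in both directions. Within 500 kb on either side, 57 other genes were listed and 27 tested, of which 4 were called higher and 4 lower, where 4.67% and 11.3% of all tested genes were. Of the 4 lower calls 2, Gm27598 and 1190001M18Rik, passed the filter through the PBS libraries alone, which fixed their direction. The median of the 27 was 0.07 on the log2 scale. The nearest tested gene before the cluster, Nle1, a ribosome assembly factor, lay 42.9 kb away and had a log2 fold change of 0.88 (SE 0.105; limma, adjusted p = 2.79e-04). The nearest after it, the non-coding AI662270, lay 8.42 kb away and was called higher, at 1.20 (SE 0.046; limma, adjusted p = 1.08e-06). The non-coding 1190001M18Rik, named after its values were seen, lies between Slfn5 and Slfn9 and had 1.86 ± 0.295 FPKM with PBS and 0.143 ± 0.0496 with cisplatin (SD, n = 3 each). Slfn9 overlaps the small RNA gene Mir7679, which had 0 to 3 reads per library.

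**Figure D4:**
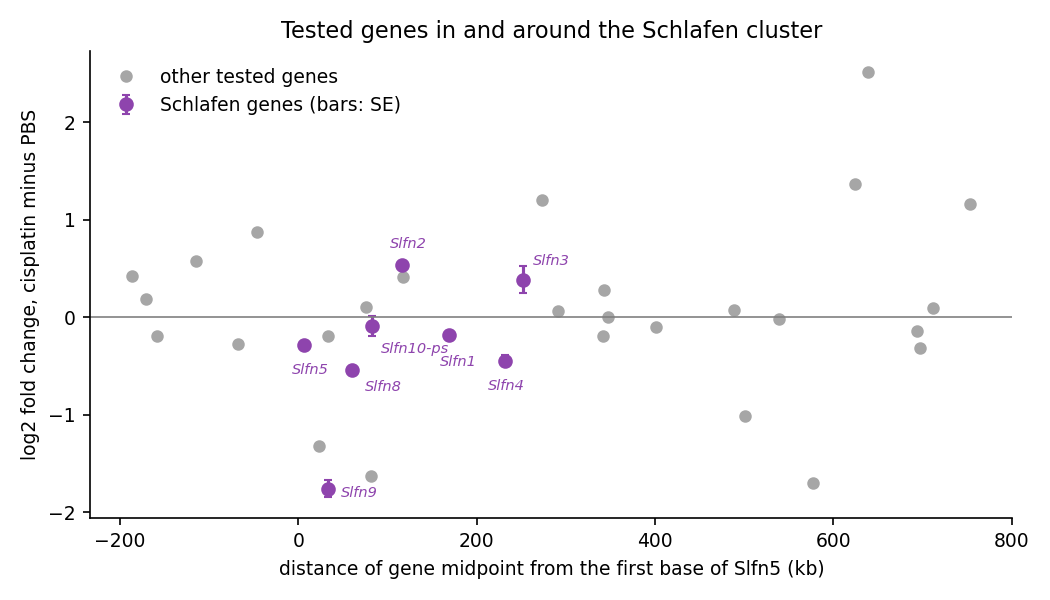
Log2 fold change, cisplatin minus PBS, of the tested genes within 500 kb of the Schlafen cluster, against the distance of their midpoints from the first base of Slfn5 in kb. Purple points are Schlafen genes with their SE and grey points are other genes. Slfn9, at -1.76, and Slfn2, at 0.54, lie among neighbours of both directions.

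Genes with the most similar profiles over the 6 libraries were sought by the distance between log2(FPKM + 1) values centred on each gene's mean. Slfn9 was nearest to Xaf1 (distance 0.115) and Plekhh2 (0.144), whose log2 fold changes were -1.73 and -1.77. Slfn2 was nearest to Zfp384 (0.027) and Dip2b (0.035), and Slfn4 to Dhx40 and Zfp326 (0.051 each). For Slfn8 these genes were Limk1 and Gde1, for Slfn5 Zfp526 and Map4k4, for Slfn1 Xrn2 and Birc3, and for Slfn3 Jaml and Gm40645, at distances of 0.023 to 0.15. The 6 libraries share 1 contrast, so that a short distance mainly reflects a like fold change.

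Several signalling genes of the interferon response were called lower, while the median of their list was close to that of the Schlafen genes. In the list of receptors and signalling proteins 18 of 19 were tested, of which 5 were called lower and none higher, beside 11.3% and 4.67% of all tested genes (2 higher at an unadjusted p under 0.05, and 0 called higher by limma voom). The median log2 fold change was -0.30, or -1.24 on the Y-linked scale. Usp18, which limits signalling at the interferon receptor, went from 66.1 ± 0.859 to 15.9 ± 0.412 FPKM (SD, n = 3 each), a log2 fold change of -1.99. Irf7, a transcription factor that sustains interferon production, had a log2 fold change of -2.59, and Stat2, which joins the complex that binds the ISRE, of -1.92. The receptor subunits Ifnar1 and Ifnar2, named here after their values were seen, had log2 fold changes of -0.03 each, with adjusted p-values of 0.638 and 0.707 (limma).

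Interferon-induced proteins that act on RNA or on translation formed the list nearest to the Schlafen proteins in known function. All 24 were tested, 17 were called lower and none higher, beside the same shares of all tested genes (3 higher at an unadjusted p under 0.05, and 1 called higher by limma voom). Their median log2 fold change was -1.97, or -2.90 on the Y-linked scale. The largest changes were those of Ifit1bl1 at -4.22, Ifit3b at -3.90 and Ifit3 at -3.82, members of a family that binds viral RNA. Ifit3 went from 263 ± 9.18 to 17.7 ± 1.93 FPKM (SD, n = 3 each). Of the Schlafen genes, only Slfn9, at -1.76, had a change of the size of this median on the FPKM scale.

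Transfer RNA cleavage and ribosome stalling, the processes in which Slfn2 and several other members act, showed small changes in both directions. Of 20 genes found in the data, 16 were tested and 0 were called in either direction by limma on the FPKM or by limma voom, where 4.67% of all tested genes were called higher and 11.3% lower. At a p under 0.05, unadjusted or adjusted, 8 were higher and 4 lower, beside 32.9% and 35.1% of all tested genes at an adjusted p. The median was 0.13 on the log2 scale, or 0.26 with a filter at 5 FPKM. Ang, the ribonuclease whose tRNA cleavage Slfn2 opposes, had 1.19 ± 0.122 FPKM with PBS and 1.60 ± 0.159 with cisplatin (SD, n = 3 each), a log2 fold change of 0.25 (SE 0.094; limma, adjusted p = 0.0499). Its inhibitor Rnh1 had 113 ± 1.14 and 163 ± 1.34 FPKM, a log2 fold change of 0.53 (SE 0.028; limma, adjusted p = 5.06e-06). Both were named after their values were seen. Scaling on the Y-linked genes turned the median of this list to -0.64.

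Of the Hedgehog pathway, to which Slfn4 has been tied, 4 of 11 genes were tested and 2, Smo and Gli3, were called lower, where 11.3% of all tested genes were. Gli3 was under 1 FPKM in every cisplatin library and passed the filter through the PBS libraries alone, so its direction was fixed by the filter and its call adds nothing to the count. Smo, the membrane protein that passes the signal on, went from 10.5 ± 0.409 to 2.60 ± 0.256 FPKM (SD, n = 3 each), a log2 fold change of -1.68, and Gli3, a repressor and activator of the pathway, had -1.03. Gli1 itself was below the filter, with mean values of 0.0253 FPKM with PBS and 0.0722 with cisplatin. The median over the 4 genes, Gli3 included, is a description only and was -0.97, or -1.64 on the Y-linked scale. Of the 11 tested markers of ID8 cells 8 were called lower, where 11.3% of all tested genes were. They included Krt19 at -3.50 and Wt1 at -3.14, while Msln (-0.70) and Col1a1 (-0.47) fell less and Cdh1 rose (0.60). The part of those cells in the values of the Hedgehog genes was not tested.

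**Figure D5:**
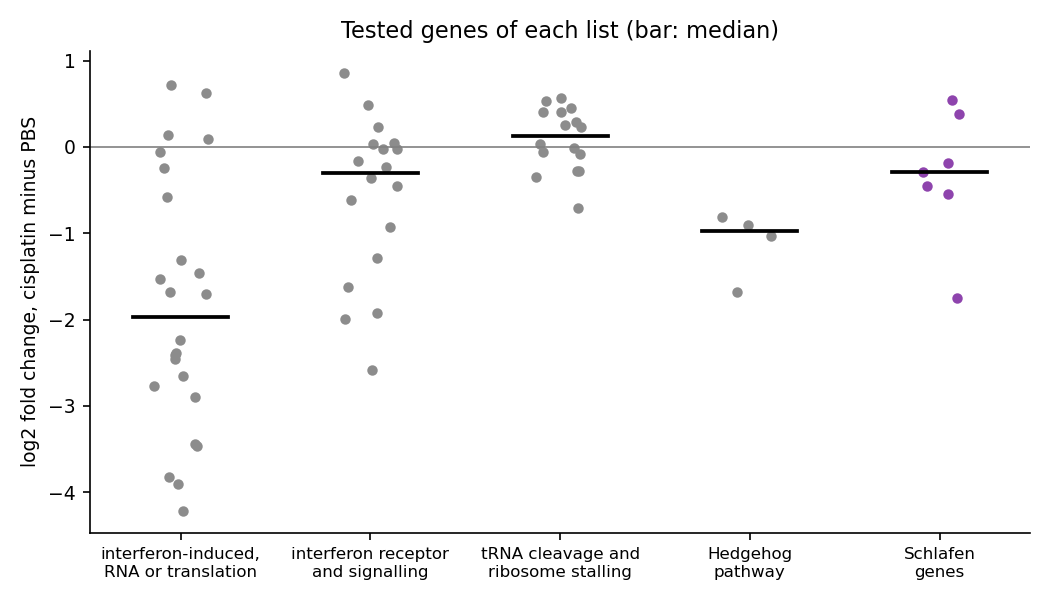
Log2 fold change, cisplatin minus PBS, of every tested gene in 4 lists and of the 7 Schlafen genes. Each point is a gene, placed sideways at random, and bars are medians. The medians are -1.97, -0.30, 0.13 and -0.97 for the lists from left to right and -0.29 for the Schlafen genes, of which Slfn9 is the lowest point.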

How the data were processed

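Poly-T selected RNA from 6 co-cultures of BMDMs with ID8 cells, 3 per group, had been sequenced. The study's methods state that monocytes were collected after co-culture, and name no step that separated them from ID8 cells for RNA extraction. Groups and replicate numbers follow the labels. The deposited values are FPKM, calculated by the authors. The submitters' processing notes name fastp, HISAT2 2.0.5, featureCounts 1.5.0-p3 and mm10, whereas the study's methods name LifeScope for alignment and counting. Whether counting used strand is not stated.

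Genes with at least 1 FPKM in at least 3 of 6 libraries were tested with limma 3.58.1 (R 4.3.3; trended eBayes, pseudocount 1), and called at an adjusted p under 0.05 with an absolute log2 fold change of 1 or more. Whole reads were recovered from FPKM times gene length within 0.1 reads; 100% of values under 200 reads came out whole. The FPKM denominators were 103.7% to 104.1% of the recovered reads with cisplatin and 97.4% to 98.7% with PBS. Compared with scaling by recovered reads, FPKM therefore lowers the cisplatin values relative to PBS. With limma voom on recovered reads the median log2 fold change of all tested genes was 0.0855. On simulated data of 13319 genes, 91.9% of 4-fold, 10.8% of 2-fold and 0% of 1.5-fold changes were called, and 98.4%, 90.8% and 78.5% had an adjusted p under 0.05. The simulation assumed the same dispersion for every gene and changed only 62, 65 and 65 genes at these sizes. Of the real genes 32.9% passed as higher and 35.1% as lower, so these rates need not hold for these data.

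The members and lists were chosen with earlier results of these data known. Named besides the members were other Schlafen symbols, the 2 nearest profiles per member, up to 3 called genes of largest change per list, and flanking or overlapping genes. Coding sequences from GENCODE M21 were aligned with Biopython 1.88. Protein sequences were not used here.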

Additional observations from a re-analysis of the deposited data

How the results depend on the processing

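Against 1 member called lower and 0 higher, an adjusted p alone gave 5 and 2, and scaling by the Y-linked genes gave 5 lower; no other alternative moved these counts. Over all genes, 628 were called higher and 1514 lower. An adjusted p alone gave 4424 and 4721, the Y-linked scaling 85 and 5181, and a test against a 2-fold change (limma treat) 240 and 982. A pseudocount of 0.1 gave 973 higher and limma voom on recovered reads 1227. Calls higher made up 29.3% of all calls, against 1.61% with the Y-linked scaling, 39.3% with quantile normalisation and 39.7% with voom. Quantile normalisation moved the median of all genes to 0.10. Leaving out each library in turn gave 1 to 1 member lower, 0 to 0 higher, 1513 to 1531 genes lower and 622 to 671 higher.

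The Y-linked scaling reversed Slfn2 (-0.45), Slfn3 (-0.38) and the median of the tRNA list (-0.64). The summed Schlafen log2 ratio of -0.12 became -1.11 with that scaling and -0.22 with recovered reads relative to the library total, and ranged from -0.15 to -0.09 with a library left out. Shares of recovered reads in place of FPKM, which weight long genes more, reversed the differences of Slfn1 (0.727 percentage points) and Slfn5 (0.054) and gave -5.13 for Slfn4, -5.63 for Slfn9 and 10.6 for Slfn2. The number of member pairs that did not overlap stayed at 18 with a pseudocount of 0.1.

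Deviations from group means of libraries with the same replicate number correlated at -0.104, -0.086 and -0.024, so the numbers were not taken as pairs. With the replicate number as a block, 1 member was called lower and 0 higher, 1515 genes lower and 625 higher, the summed log2 ratio was -0.12, and the adjusted p of Slfn3 was 0.0934. Without the filter it was 0.107. Genes of few reads, such as Slfn14, were under the filter of the main test, and their counts carry a wide counting error.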
